A study of Sus scrofa with 24 samples.

Results

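Solute carriers are the membrane proteins that move sugars, amino acids, ions, metals, nucleotides, lipids and vitamins across the plasma membrane and the membranes of organelles. The genes described here are those of the porcine array whose single annotated symbol starts with SLC and a number, without the mitochondrial SLC25 family, SLC6A8, SLC37A4 and SLC40A1. Each gene was read by its brightest probe set, and a gene was kept when the mean signal of at least 1 stage reached 100. Of 97 measured genes 72 were kept, out of 5770 genes of the array that pass the same level rule and 6765 with a single symbol. By substrate they fall into 11 sugar carriers, 2 carriers of carboxylates, 12 of amino acids and peptides, 8 of inorganic ions, 13 of metals, 11 of nucleosides and nucleotide sugars, 9 of lipids, vitamins and choline, 3 of organic ions, and 3 regulators that share the symbol but carry nothing. Signal level chose these genes, so a level that passed 100 is a description and no result. Just inside the limit were SLC34A2, with a highest stage mean of 104 at 1 dpn, and SLC4A4, with 107 at 188 dpn. Just outside it were SLC7A4, with 88.2 at 94 dpc, and SLC5A10, with 86.0 at 1 dpn.

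The arrays measured RNA of 24 pigs born to or carried by German Landrace gilts on a high protein diet in gestation, so every animal had this prenatal diet and no other diet is compared here. There are 6 animals at each of 4 stages: fetuses at 94 days post conception (94 dpc), and offspring at 1, 28 and 188 days after birth (dpn). Each stage drew on the litters of 3 gilts. Which animals shared a mother is not stated in the labels used here, and p-values treat the 6 as independent.

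In skeletal muscle, glucose enters by facilitative carriers of the SLC2 family, among them the insulin-responsive SLC2A4, and lactate leaves by SLC16 carriers that need basigin as a subunit. Sodium-coupled and exchange carriers bring in neutral and cationic amino acids, and several amino acid exchangers work only as pairs of a light chain with the heavy chain SLC3A2 or SLC3A1. Carriers of the SLC30, SLC31, SLC39 and SLC41 families handle zinc, copper and magnesium, and SLC35 carriers supply the Golgi and endoplasmic reticulum with nucleotide sugars and related substrates.

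Some facts of the arrays touch many results. The sources conflict on tissue, with liver in the sample labels but muscle in the title of the series, and the median signal of 8 skeletal muscle genes was 23627 to 78096 over the 24 arrays, at the 99.7 percentile of probe sets or above in each. The median of 12 liver genes was 18.0 to 13442, and at 188 dpn it was 13442, 9854 and 1658 in animals 1, 2 and 3 and 18.0 to 106 in animals 4 to 6. At the earlier stages the highest were 1196, 1719 and 1008 in 1 dpn animals 1, 3 and 6 and 1211 in 94 dpc animal 2. The 1 dpn animals 1, 2 and 3 had a 5' to 3' signal ratio of the control transcript EF1A of 0.135, 0.105 and 0.0963, against 0.670 to 0.703 in the 1 dpn animals 4 to 6 and at least 0.512 in all others. Leaving out 1 dpn animals 1 to 3 thus does not separate low 5' signal from the high liver medians of animals 1 and 3. The median of 5 macrophage genes was 2927 in 94 dpc animal 5 and 155 to 735 in the other arrays. Over all arrays the list medians were 63.9 to 389.6 for adipocyte genes, 83.8 to 785 for erythroid genes, 259 to 739 for endothelial genes and 56.4 to 210.1 for neural and Schwann cell genes. Of 7 endothelial genes 5 were lower at 1 dpn than at 94 dpc (median log2 difference -0.98), 4 were higher at 28 than at 1 dpn, 4 were lower at 188 than at 28 dpn, and 6 were lower and 1 higher at 188 dpn than at 94 dpc (median -2.10). Of 4 erythroid genes 3 were lower and of 8 skeletal muscle genes 8 were higher at 188 dpn than at 94 dpc. Of all probe sets 20.8% were lower from 94 dpc to 1 dpn, 11.6% higher from 1 to 28 dpn, and 10.5% lower from 28 to 188 dpn. From 94 dpc to 188 dpn 27.4% were lower and 12.5% higher. Among genes that pass the same level rule the shares were 23.6%, 15.2%, 16.5%, 34.1% and 23% in this order. The part of these cell types in the differences of the carriers was not tested. In these whole-tissue samples, fewer cells of a type and less RNA per cell cannot be told apart.

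Of the 72 genes, 47 had a mean of 100 or more at all 4 stages and 25 only at some. The highest stage mean reached 1000 in 11 genes, and the median over the genes of the highest stage mean was 363.5. Geometric stage means differed at least 2-fold between the highest and the lowest stage in 46 genes, and in 17 genes at least 1 of them lay under the background signal of 74.7. Exactly 10 genes reached a mean of 100 at 1 stage alone, and 4 of the calls counted next set such a gene at that stage against another. Those 4 follow from the level rule in part, so the genes are given by their levels with no test. The stage with the lowest geometric mean was 188 dpn in 32 genes, 94 dpc in 19, 1 dpn in 13 and 28 dpn in 8.

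**Figure D1:**
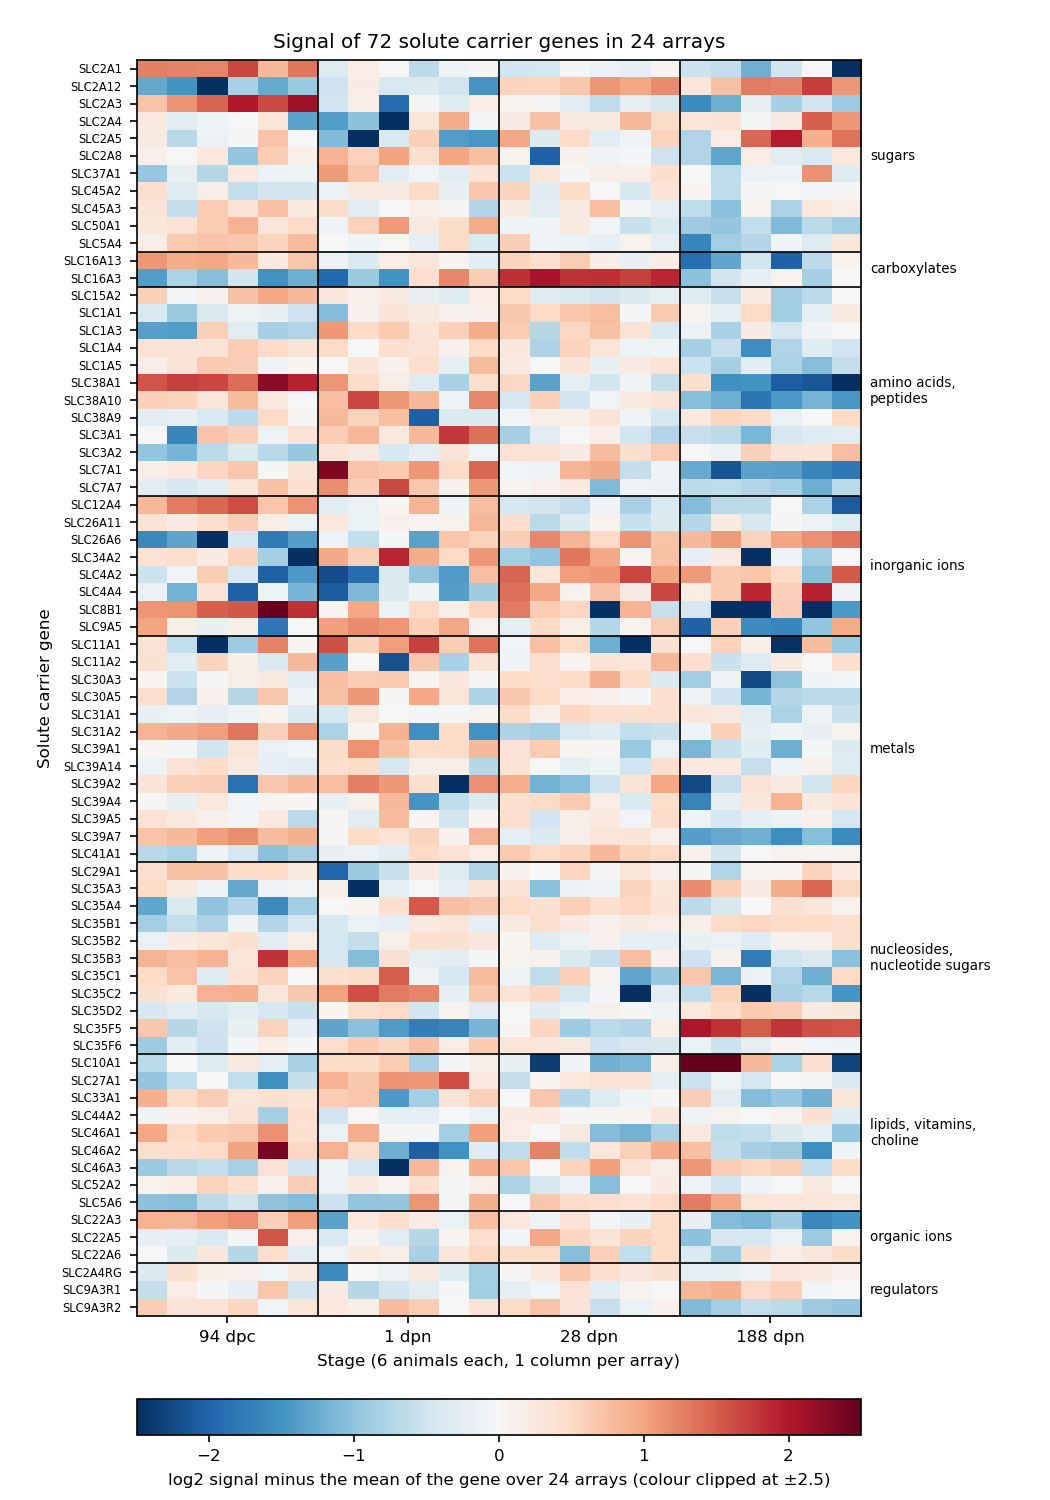
Signal of the 72 solute carrier genes (rows, grouped by substrate) in 24 arrays (columns, 6 animals per stage), as log2 signal minus the mean of the gene over all arrays, with red above and blue below that mean. SLC16A3 is red in all 28 dpn animals and SLC35F5 in all 188 dpn animals, while SLC2A1, SLC2A3 and SLC38A1 are red in all 94 dpc animals.

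Between 94 dpc and 1 dpn, 14 of the 72 genes were called higher and 12 lower at an adjusted p of at most 0.05. Of all 23935 probe sets 10.1% were called higher and 20.8% lower (31% in either direction), and of the genes of the same level 19.7% and 23.6% (43.3%). The stages did not overlap in 10 genes, against 13.7% of all probe sets and 22.1% of genes of the same level. Between 1 and 28 dpn, 8 were higher and 9 lower, against 11.6% and 9.1% of all probe sets (20.7% in either direction) and 15.2% and 15.3% of genes of the same level (30.5%). Here 7 genes did not overlap, against 9.4% and 15.1%. Between 28 and 188 dpn, 2 were higher and 16 lower, against 4.12% and 10.5% of all probe sets (14.6%) and 7.18% and 16.5% of genes of the same level (23.7%). In this step 13 did not overlap, against 12.2% and 21.5%. Between 94 dpc and 188 dpn, 10 were higher and 23 lower, against 12.5% and 27.4% of all probe sets (39.9%) and 23% and 34.1% of genes of the same level (57.1%). Here 24 did not overlap, against 29.1% and 45.2%. The shares of the 72 genes called were 36.1%, 23.6%, 25% and 45.8% in this order, near or below those of genes of the same level. An F test over the 4 stages called 51 genes (52.3% of all probe sets and 74% of genes of the same level), and 20 passed neither it nor any of the 4 comparisons. The comparisons share stages, so they are not independent of each other.

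The balance of higher and lower calls depended on how the arrays were scaled. Median differences over all probe sets were -0.15, 0.02, -0.18 and -0.29 in log2 in the order above, and those of the 72 genes were -0.00034, -0.05, -0.32 and -0.41. With quantile normalization the calls from 94 dpc to 1 dpn became 23 higher and 7 lower, and with arrays centred on their median 22 and 7. From 28 to 188 dpn they became 2 and 8, and 3 and 8. From 94 dpc to 188 dpn they became 21 higher and 17 lower, and 25 and 14. The median of all probe sets from 94 dpc to 188 dpn was -0.29 as deposited, and 0.05 and 0.25 with these scalings. Differences smaller than the move from the first to either of the others have no settled direction. Each gene was refitted under 33 alternatives: other scalings, filters, constants and variance models, sets of arrays left out, each animal left out, and the mean of all its probe sets. Where a call was lost in any of them, the range of adjusted p is given beside it. In what follows 3 signals in a row are the lowest, median and highest of the 6 animals of a stage, and a difference is the later minus the earlier stage in log2 signal.

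Among the 11 sugar carriers, the glucose carriers SLC2A1 and SLC2A3 were lower after birth than before it, SLC2A12 was higher, and SLC50A1 fell after 1 dpn. The counts were 1 higher and 2 lower from 94 dpc to 1 dpn, and 1 higher and 2 lower from 1 to 28 dpn. From 28 to 188 dpn they were 0 higher and 1 lower. From 94 dpc to 188 dpn 1 was higher and 4 (36.4%) lower, with a median difference of -0.40. Of all probe sets 12.5% were higher and 27.4% lower there, and of genes of the same level 23% and 34.1%. With quantile normalization 4 were higher and 4 lower (median 0.14), and with arrays centred on their median 4 and 3 (median 0.13).

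SLC2A1 encodes GLUT1, the basal glucose carrier of many cell types. Its lowest, median and highest signals were 306, 415 and 552 at 94 dpc, 111, 165 and 198 at 1 dpn, 125, 154 and 182 at 28 dpn, and 31.1, 118 and 175 at 188 dpn. Every fetus lay above every later animal, and 188 dpn animal 6 was the lowest of all. The log2 difference from 94 dpc to 1 dpn was -1.42 ± 0.29 (SE; adjusted p = 0.000593), and to 188 dpn it was -2.14 ± 0.29 (SE; adjusted p = 2.05e-06). SLC2A3, the high-affinity GLUT3, had lowest, median and highest signals of 535, 951 and 1409.8 at 94 dpc, 86.2, 292 and 368 at 1 dpn, 211, 274 and 344 at 28 dpn, and 108, 178 and 287 at 188 dpn. Here too the fetuses did not overlap with any later stage. The fall to 1 dpn was -1.91 ± 0.32 (SE; adjusted p = 8.5e-05) in log2, and 1 dpn animal 3, of the arrays with low 5' signal, was the lowest at 86.2. The erythroid list median was 333 to 600.0 at 94 dpc and 208 to 336 at 1 dpn, and the endothelial one 438 to 520.0 and 307 to 739. Gene by gene, 5 of the 7 endothelial genes were lower at 1 dpn, against 20.8% of all probe sets and 23.6% of genes of the same level. Among the 5 were the junction proteins PECAM1 (-1.09 ± 0.18 SE in log2, adjusted p = 7.94e-05) and CDH5 (-1.26 ± 0.18 SE, adjusted p = 1.44e-05), both without overlap. Their part in the falls of SLC2A1 and SLC2A3 was not tested.

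SLC2A12, the GLUT12 carrier of muscle and other tissues, ran the other way. In SLC2A12 the lowest, median and highest signals were 29.6, 76.5 and 105 at 94 dpc, 66.3, 136 and 213 at 1 dpn, 267, 326 and 420.5 at 28 dpn, and 226, 415 and 608 at 188 dpn. The 28 and 188 dpn animals lay above all animals of the earlier stages. From 1 to 28 dpn it rose, with a log2 difference of 1.34 ± 0.30 (SE; adjusted p = 0.00248), and from 94 dpc, where its geometric mean was under background, to 188 dpn by at least 4.63-fold (2.46 ± 0.30 SE, adjusted p = 5.08e-07). The rise to 1 dpn was 0.90 ± 0.30 (SE; adjusted p = 0.0242, and 0.00419 to 0.225 over the alternatives). SLC2A4, the insulin-responsive GLUT4, had signals of 55.3, 135 and 171 at 94 dpc, 10.8, 101 and 266 at 1 dpn, 159, 178 and 244 at 28 dpn, and 135, 174 and 394 at 188 dpn. The F test did not call it (adjusted p = 0.0872). The 1 dpn animals spanned the widest range, with 52.8, 68.2, 10.8, 171, 266 and 134 for animals 1 to 6. Another probe set of the gene had geometric means of 64.0, 253, 167 and 80.5 and rose at birth by 1.98 (adjusted p = 0.0036), so the probe sets of SLC2A4 disagree on that step. The 64.0 is under the background signal of 74.7, so the size of this rise is not measured.

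SLC50A1, a sugar carrier of the SWEET family, fell across postnatal life. For SLC50A1 the lowest, median and highest signals were 517, 573 and 779 at 94 dpc, 403, 610.1 and 894 at 1 dpn, 289, 401 and 497 at 28 dpn, and 200.01, 232 and 280.4 at 188 dpn. All 188 dpn animals lay below all animals of the other stages. The difference from 94 dpc to 188 dpn was -1.33 ± 0.18 (SE; adjusted p = 3.32e-06), with -0.69 ± 0.18 (SE; adjusted p = 0.0102, and 0.00264 to 0.0695 over the alternatives) from 1 to 28 dpn. SLC2A8, a carrier of internal membranes, had 78.0, 169 and 240.1 at 94 dpc, 204, 273 and 313 at 1 dpn, 38.0, 148 and 167 at 28 dpn, and 63.5, 123 and 186 at 188 dpn. Its 1 dpn animals lay above all 28 dpn animals, and the fall was -1.18 ± 0.33 (SE; adjusted p = 0.0142, and 0.00734 to 0.096 over the alternatives). SLC5A4, a member of the sodium glucose cotransporter family, was lower at 188 dpn than at 94 dpc, with a log2 difference of -1.15 ± 0.24 (SE; adjusted p = 0.000581, and 9.98e-05 to 0.0616 over the alternatives) with overlapping stages. The fructose carrier SLC2A5 reached 100 at 188 dpn alone, with a median of 26.6 at 1 dpn and 139 at 188 dpn. SLC37A1, SLC45A2 and SLC45A3 were not called in any test.

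Of 12 calls among sugar carriers over the 4 comparisons, 7 held in all 33 alternatives. Quantile normalization or median centring, or both, ended the calls of SLC50A1 from 28 to 188 dpn, and SLC5A4 from 94 dpc to 188 dpn. Without 1 dpn animals 1 to 3 there was no call for SLC2A12 from 94 dpc to 1 dpn, and SLC2A8 from 1 to 28 dpn. Without 188 dpn animals 1 to 3 there was no call for SLC50A1 from 28 to 188 dpn. Fitting only the 2 stages compared ended the calls of SLC2A12 from 94 dpc to 1 dpn, and SLC50A1 from 1 to 28 dpn. SLC2A12 from 94 dpc to 1 dpn was not called without 1 dpn animal 2 or 94 dpc animal 3 (log2 0.65 to 0.76, adjusted p 0.0634 to 0.0705).

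Genes that work on the same glucose were read from a list of carrier partners, in which HK2 was not measured. Of 5 measured genes of glucose and lactate use, 4 were higher and 1 lower from 94 dpc to 1 dpn. From 94 dpc to 188 dpn 3 were higher and 2 lower. Of all probe sets 31% and 39.9% were called in these comparisons, and of genes of the same level 43.3% and 57.1%. GYS1 was higher in both, by 0.88 to 1.91 and 0.92 to 1.75 in log2 over the alternatives. Hexokinase HK1, which traps glucose as its phosphate, had 925, 1180.2 and 1290.2 at 94 dpc, 374, 763 and 1067 at 1 dpn, 445, 571 and 669 at 28 dpn, and 210.4, 255 and 398 at 188 dpn, and fell from 28 to 188 dpn, with a log2 difference of -1.03 ± 0.22 (SE; adjusted p = 0.0025). Of 8 measured genes of GLUT4 vesicle traffic, 2 were higher and 2 lower at 188 dpn than at 94 dpc. These were 50% called, against 39.9% of all probe sets and 57.1% of genes of the same level. Among the higher, VAMP3 differed by 0.34 in log2 (adjusted p = 0.0416, and 3.77e-05 to 0.404 over the alternatives). VAMP2, a vesicle fusion protein, had 472, 533 and 641 at 94 dpc, 269.8, 365 and 489 at 1 dpn, 216, 238 and 316 at 28 dpn, and 169.6, 195 and 269 at 188 dpn. It was lower at 188 dpn than at 94 dpc, with a log2 difference of -1.45 ± 0.16 (SE; adjusted p = 1.43e-07), without overlap. RAB10, a small GTPase of the vesicles, was higher, with a log2 difference of 0.99 ± 0.22 (SE; adjusted p = 0.000724), also without overlap, and RAB13 was lower, with a log2 difference of -1.43 ± 0.29 (SE; adjusted p = 0.000351), with overlap.

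The lactate exporter SLC16A3 showed the largest change between neighbouring stages among the 72 genes, a peak at 28 dpn. SLC16A3 encodes MCT4, the lactate and proton carrier of glycolytic muscle fibres. The lowest, median and highest signals of SLC16A3 were 397, 516 and 813 at 94 dpc, 295, 1042 and 2619 at 1 dpn, 3721, 4017 and 4721 at 28 dpn, and 559, 892 and 1198 at 188 dpn. Every 28 dpn animal lay above every animal of the other stages. From 1 to 28 dpn it rose, with a log2 difference of 2.21 ± 0.40 (SE; adjusted p = 0.000401) and from 28 to 188 dpn it fell by 2.27 ± 0.40 in log2 (SE; adjusted p = 0.000392). At 1 dpn the animals 1 to 6 read 295, 595, 404, 1488, 2619 and 1752: animals 1 to 3 lay within the fetal range or below it and animals 4 to 6 above it. From 94 dpc to 1 dpn the difference was 0.72 ± 0.40 (SE; adjusted p = 0.181). Without the 1 dpn animals 1 to 3, whose arrays had low 5' signal, it was 1.82 (adjusted p = 4.57e-05).

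SLC16A13, another member of the monocarboxylate family, fell late. In SLC16A13 the lowest, median and highest signals were 256, 397 and 460.1 at 94 dpc, 169, 211 and 264 at 1 dpn, 190.3, 271 and 337 at 28 dpn, and 53.5, 114 and 233 at 188 dpn. The 188 dpn animals lay below all fetuses, and animals 1, 2 and 4 were the lowest. The difference from 28 to 188 dpn was -1.34 ± 0.28 (SE; adjusted p = 0.00214), and from 94 dpc to 1 dpn it was -0.82 ± 0.28 (SE; adjusted p = 0.0297, and 0.0117 to 0.25 over the alternatives). Basigin, BSG, the subunit that brings MCT4 to the membrane, had 759.8, 915 and 1240.0 at 94 dpc, 1674, 2918 and 3409 at 1 dpn, 1669, 1908 and 2325 at 28 dpn, and 751, 856 and 1365 at 188 dpn. It rose at birth, with a log2 difference of 1.53 ± 0.18 (SE; adjusted p = 1.61e-06) and fell from 28 to 188 dpn, with a log2 difference of -1.09 ± 0.18 (SE; adjusted p = 0.000245), each without overlap. Lactate dehydrogenase LDHA had 10504, 11804 and 14019 at 94 dpc, 16428, 31677 and 44262 at 1 dpn, 62187, 67477 and 77156 at 28 dpn, and 59047, 66518 and 74589.9 at 188 dpn. LDHA was higher at 1 dpn, with a log2 difference of 1.33 ± 0.17 (SE; adjusted p = 5.27e-06) and at 28 dpn again, with a log2 difference of 1.19 ± 0.17 (SE; adjusted p = 4.78e-05), and was not called from 28 to 188 dpn, at -0.02 ± 0.17 (SE; adjusted p = 0.963). LDHB, the other lactate dehydrogenase gene of the list, was lower at 188 than at 28 dpn. Its log2 differences were -1.12 to -0.82 over the alternatives (adjusted p at most 0.00349).

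Of 5 calls of the monocarboxylate carriers, 4 held in all 33 alternatives. The call of SLC16A13 from 94 dpc to 1 dpn was lost when the arrays were scaled by quantiles or on their median. Lost without the 1 dpn animals 1 to 3 was the call of SLC16A13 from 94 dpc to 1 dpn. SLC16A13 from 94 dpc to 1 dpn was not called without 1 dpn animal 1, 2, 6 or 94 dpc animal 1, 2, 3 (log2 -0.80 to -0.76, adjusted p 0.0506 to 0.0632).

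**Figure D2:**
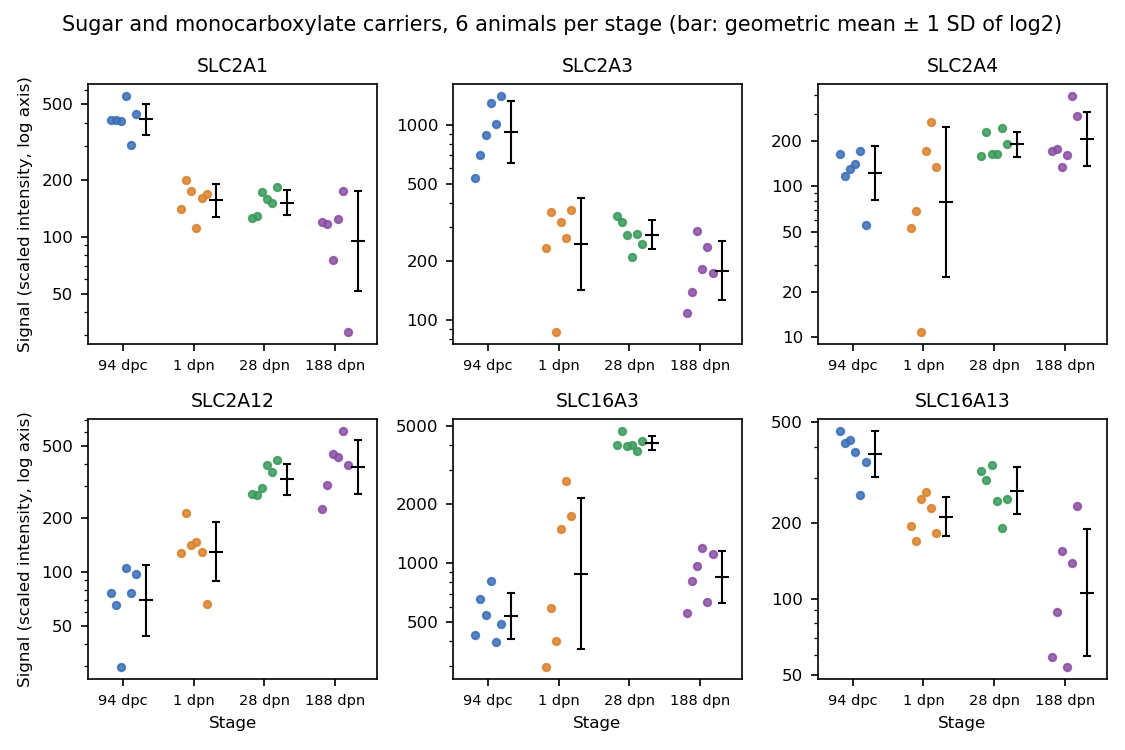
Signal of 6 sugar and monocarboxylate carriers by stage on a log axis, 1 point per animal, with the geometric mean and 1 SD of log2 signal as a bar beside the points. The SLC16A3 animals at 28 dpn sit between 3721 and 4721, above all others, and the SLC2A1 and SLC2A3 fetuses sit above all later animals.

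Of 12 amino acid and peptide carriers 7 (58.3%) were lower in the 188 dpn animals than in fetuses, against 27.4% of all probe sets and 34.1% of genes of the same level. The 7 include SLC15A2, which was kept through 94 dpc alone, so its call follows in part from the level rule. The heavy chain SLC3A2 was higher, and the median difference was -0.89, against -0.29 over all probe sets. With quantile normalization 5 were lower and 3 higher (median -0.40), and with arrays centred on their median 4 and 4 (median -0.35). Of the endothelial genes 6 of 7 were lower over the same interval, against the same shares of 27.4% and 34.1%, and their part was not tested. The counts were 5 higher and 1 lower from 94 dpc to 1 dpn, and 0 higher and 4 lower from 1 to 28 dpn. They were 0 higher and 5 lower from 28 to 188 dpn, and 1 higher and 7 lower from 94 dpc to 188 dpn. Of all probe sets 10.1% were higher at birth, 9.1% lower from 1 to 28 dpn and 10.5% lower from 28 to 188 dpn. Of genes of the same level these shares were 19.7%, 15.3% and 16.5%. With quantile normalization or median centring the 5 higher at birth became 7, and the 5 lower from 28 to 188 dpn became 3. The 5 higher include SLC1A3, which was kept through 1 dpn alone. The F test called 11 of the 12.

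SLC7A1, the cationic amino acid carrier CAT1 that brings in arginine and lysine, was highest at 1 dpn. Its lowest, median and highest signals were 772, 966 and 1279 at 94 dpc, 1116, 1494 and 3994 at 1 dpn, 529.6, 757 and 1530.4 at 28 dpn, and 179, 282 and 334 at 188 dpn. The 188 dpn animals lay below all others and 1 dpn animal 1 was the highest. It fell from 28 to 188 dpn, with a log2 difference of -1.75 ± 0.29 (SE; adjusted p = 0.000239). The step to 1 dpn was 0.80 ± 0.29 (SE; adjusted p = 0.0409, and 0.00673 to 0.115 over the alternatives), and that to 28 dpn -0.95 ± 0.29 (SE; adjusted p = 0.0227, and 0.00844 to 0.107 over the alternatives). SLC7A7, a light chain that exchanges cationic for neutral amino acids, had 109.8, 149.8 and 243 at 94 dpc, 157, 271 and 455 at 1 dpn, 67.4, 143 and 168 at 28 dpn, and 62.3, 89.4 and 94.2 at 188 dpn. SLC7A7 was highest at 1 dpn, with a log2 difference of 0.80 ± 0.26 (SE; adjusted p = 0.0215, and 0.00174 to 0.204 over the alternatives) over 94 dpc, and fell to 28 dpn, with a log2 difference of -1.05 ± 0.26 (SE; adjusted p = 0.00569, and 0.00156 to 0.0919 over the alternatives).

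SLC3A2, the CD98 heavy chain that SLC7A7 and other light chains need, rose at birth and stayed above the fetal level. For SLC3A2 the lowest, median and highest signals were 219, 279 and 383 at 94 dpc, 375, 523 and 628 at 1 dpn, 571, 649 and 856 at 28 dpn, and 437, 617 and 838 at 188 dpn. The 28 and 188 dpn animals lay above all fetuses. The difference was 0.84 ± 0.18 (SE; adjusted p = 0.00136) from 94 dpc to 1 dpn and 1.11 ± 0.18 (SE; adjusted p = 3.68e-05) from 94 dpc to 188 dpn. SLC3A1, the other heavy chain, gave no settled direction. Its brightest probe set was higher at 1 dpn, with a log2 difference of 0.97 ± 0.32 (SE; adjusted p = 0.0265, and 0.00394 to 0.213 over the alternatives) and lower at 28 dpn, with a log2 difference of -1.31 ± 0.32 (SE; adjusted p = 0.00566, and 0.000775 to 0.622 over the alternatives). A second probe set had geometric means of 235, 47.7, 183 and 168 and went the opposite way, by -2.30 (adjusted p = 0.0086) and 1.93 (adjusted p = 0.035). With the mean of both, the differences were -0.67 and 0.31. The 47.7 of the second probe set at 1 dpn is under the background signal of 74.7, so the sizes of its steps are not measured.

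Of the 3 SLC38 genes kept, SLC38A1 and SLC38A10 fell and SLC38A9 was not called. SLC38A1, the SNAT1 carrier of glutamine and alanine, had lowest, median and highest signals of 465, 568 and 847 at 94 dpc, 100.2, 217 and 378 at 1 dpn, 70.1, 138 and 253 at 28 dpn, and 30.4, 51.8 and 234 at 188 dpn. Every fetus lay above every later animal. The fall at birth was -1.59 ± 0.40 (SE; adjusted p = 0.00397) in log2, and at 188 dpn the gene was at least 6.59-fold lower than at 94 dpc (-3.31 ± 0.40 SE, adjusted p = 5.11e-07). The 3 probe sets of SLC38A1 had the same sign there, with -3.31, -3.60 and -2.38. The 188 dpn animals 2 to 6 read 30.4 to 62.7 and animal 1, with the highest liver list median, 234. The step from 28 to 188 dpn was -1.19 ± 0.40 (SE; adjusted p = 0.0473, and 0.00184 to 0.148 over the alternatives).

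SLC38A10, of the same family, had 407, 555 and 711 at 94 dpc, 387, 799 and 1310.4 at 1 dpn, 295, 433 and 624 at 28 dpn, and 117, 164 and 196 at 188 dpn. All 188 dpn animals lay below all animals of the other stages. It fell from 28 to 188 dpn, with a log2 difference of -1.39 ± 0.24 (SE; adjusted p = 0.000409), and the step from 1 to 28 dpn was -0.88 ± 0.24 (SE; adjusted p = 0.0127, and 0.00109 to 0.162 over the alternatives). SLC1A5, the glutamine exchanger ASCT2, had 831, 1060.5 and 1403 at 94 dpc, 763, 1041 and 1534 at 1 dpn, 788, 1035 and 1134 at 28 dpn, and 425, 555 and 741 at 188 dpn. Only the 188 dpn animals stood apart, below all others, with a log2 difference of -0.83 ± 0.18 (SE; adjusted p = 0.00299) against 28 dpn. SLC1A4, the related ASCT1, had 215, 222 and 268 at 94 dpc, 173, 226 and 245 at 1 dpn, 102, 185 and 255 at 28 dpn, and 59.1, 109 and 140.3 at 188 dpn. Against 94 dpc the 188 dpn animals were lower, with a log2 difference of -1.16 ± 0.21 (SE; adjusted p = 8.65e-05), without overlap, and against 28 dpn, with a log2 difference of -0.78 ± 0.21 (SE; adjusted p = 0.0136, and 0.00226 to 0.177 over the alternatives).

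SLC1A3, the glutamate carrier EAAT1, had 28.2, 43.2 and 113 at 94 dpc, 94.3, 115 and 158 at 1 dpn, 45.6, 101 and 125 at 28 dpn, and 42.7, 69.0 and 86.3 at 188 dpn. Its mean reached 100 at 1 dpn alone, and its geometric mean was under background at 94 dpc and 188 dpn. SLC1A1, the glutamate carrier EAAT3, passed the F test (adjusted p = 0.0146) but no comparison, and its median was highest at 28 dpn with 249. The peptide carrier SLC15A2 had stage means of 134, 94.6, 79.8 and 72.3, and reached 100 at 94 dpc alone. SLC38A9, the arginine sensor of the lysosome, was not called in any test, with stage medians of 395, 525, 479 and 602.

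Of 23 calls among amino acid and peptide carriers, 11 held in all 33 alternatives. The 23 include those of SLC15A2 and SLC1A3, which follow in part from the level rule. Under quantile or median scaling, calls were lost for SLC1A4 and SLC38A1 from 28 to 188 dpn, and SLC15A2, SLC1A5 and SLC7A7 from 94 dpc to 188 dpn. The calls of SLC7A1 and SLC7A7 from 94 dpc to 1 dpn, and SLC38A10, SLC7A1 and SLC7A7 from 1 to 28 dpn did not hold without the 1 dpn animals with low 5' signal, 1 to 3. Lost without the 188 dpn animals 1 to 3 were the calls of SLC7A1 from 94 dpc to 1 dpn, and SLC1A4 from 28 to 188 dpn. In a fit of only the 2 stages compared, no call was made for SLC3A1, SLC7A1 and SLC7A7 from 94 dpc to 1 dpn, SLC38A10 and SLC7A1 from 1 to 28 dpn, and SLC1A4 and SLC38A1 from 28 to 188 dpn. With 16 added before the log2 the call of SLC38A1 from 28 to 188 dpn was lost too. Averaging all probe sets of a gene ended the calls of SLC7A7 from 94 dpc to 1 dpn, and SLC7A7 from 94 dpc to 188 dpn. SLC38A1 from 28 to 188 dpn lost its call when any 1 of 19 animals was left out (1 dpn 2/3/6, 188 dpn 2/3/4/5/6, 28 dpn 1/3/4/5/6, 94 dpc 1/2/3/4/5/6), with log2 -1.23 to -0.99, adjusted p 0.0501 to 0.115. SLC3A1 from 94 dpc to 1 dpn was not called without 1 dpn animal 5, 6 or 94 dpc animal 2 (log2 0.64 to 0.88, adjusted p 0.0551 to 0.0696). SLC7A1 from 94 dpc to 1 dpn was not called without 1 dpn animal 1, 4, 6 or 94 dpc animal 1, 2, 5, 6 (log2 0.56 to 0.81, adjusted p 0.0562 to 0.114). SLC7A1 from 1 to 28 dpn was not called without 1 dpn animal 1 or 28 dpn animal 5 (log2 -0.80 to -0.71, adjusted p 0.059 to 0.063). SLC7A7 from 94 dpc to 1 dpn was not called without 1 dpn animal 3 or 94 dpc animal 1, 2, 3 (log2 0.65 to 0.73, adjusted p 0.0508 to 0.0609).

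**Figure D3:**
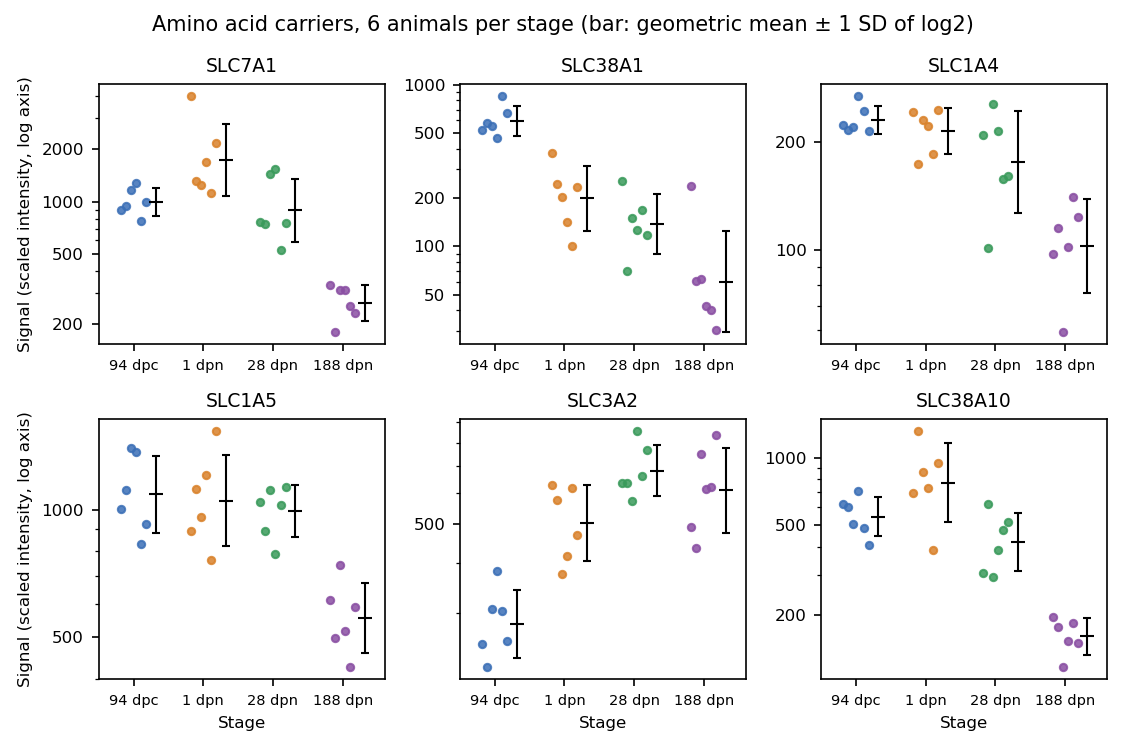
Signal of 6 amino acid carriers by stage on a log axis, 1 point per animal, with the geometric mean and 1 SD of log2 signal as a bar beside the points. The SLC7A1 animals at 188 dpn sit between 179 and 334, below all others, and those of SLC3A2 at 28 dpn sit between 571 and 856, above all fetuses.

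Among metal carriers the zinc carrier SLC39A7 fell from 94 dpc to 188 dpn, and the magnesium carrier SLC41A1 rose at birth. All 13 measured metal carriers passed the level rule. The counts were 2 higher and 2 lower from 94 dpc to 1 dpn, and 1 higher and 1 lower from 1 to 28 dpn. From 94 dpc to 188 dpn they were 1 higher and 2 lower. From 28 to 188 dpn 0 were higher and 5 (38.5%) lower, against 10.5% lower of all probe sets and 16.5% of genes of the same level. The median difference was -0.33 there, against -0.18 over all probe sets. With quantile normalization 1 was lower (median -0.16, against 0.01 over all probe sets), and with median centring 1 (median -0.06, against 0.09).

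SLC39A7, ZIP7, releases zinc from the endoplasmic reticulum. Its lowest, median and highest signals were 1236, 1354 and 1693 at 94 dpc, 769, 997 and 1352 at 1 dpn, 589, 829 and 939 at 28 dpn, and 252, 302 and 361 at 188 dpn. All 188 dpn animals lay below all other animals, and the 28 dpn animals below all fetuses. From 28 to 188 dpn it fell by 1.39 ± 0.16 in log2 (SE; adjusted p = 4.68e-06), and from 94 dpc to 188 dpn, with a log2 difference of -2.24 ± 0.16 (SE; adjusted p = 3.13e-10). The step at birth was -0.51 ± 0.16 (SE; adjusted p = 0.0201, and 0.00623 to 0.461 over the alternatives). SLC39A1, the plasma membrane importer ZIP1, had 956, 1256 and 1605 at 94 dpc, 1792, 1995 and 2829 at 1 dpn, 690.2, 1343 and 2026 at 28 dpn, and 564, 954 and 1257 at 188 dpn. Its 1 dpn animals lay above all fetuses. The difference was 0.74 ± 0.24 (SE; adjusted p = 0.0202, and 0.00177 to 0.963 over the alternatives) at birth and -0.68 ± 0.24 (SE; adjusted p = 0.044, and 0.0208 to 0.838 over the alternatives) from 1 to 28 dpn. Another, dimmer probe set of SLC39A1 had geometric means of 757, 465, 669 and 472, with -0.70 at birth (adjusted p = 0.11), so the probe sets do not settle the direction. SLC39A14, SLC39A4, SLC39A5 and SLC39A2 were not called in any test, with stage medians of 66.0 to 388.

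Zinc exporters that load vesicles, SLC30A3 and SLC30A5, were lower at 188 than at 28 dpn. For SLC30A3 the lowest, median and highest signals were 185, 269 and 314 at 94 dpc, 275, 372 and 455 at 1 dpn, 213, 375 and 499 at 28 dpn, and 57.3, 197 and 264 at 188 dpn, and the difference was -1.12 ± 0.30 (SE; adjusted p = 0.0126, and 0.00533 to 0.0945 over the alternatives). In SLC30A5 they were 85.9, 145 and 229 at 94 dpc, 84.0, 208 and 306 at 1 dpn, 139.7, 179 and 231 at 28 dpn, and 64.4, 91.2 and 132 at 188 dpn, with -0.94 ± 0.29 (SE; adjusted p = 0.0323, and 0.00417 to 0.384 over the alternatives) and no overlap. Both calls were lost in several alternatives.

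Copper and magnesium carriers moved in different ways. SLC31A2, CTR2, a copper carrier of internal membranes, had 1194, 1586 and 1989.9 at 94 dpc, 275, 642 and 1444 at 1 dpn, 442, 527 and 640.1 at 28 dpn, and 682, 734 and 1194 at 188 dpn. Its 28 dpn animals lay below all fetuses, and the fall at birth was -1.39 ± 0.32 (SE; adjusted p = 0.00194). The 1 dpn animals 4 and 6 were the lowest, and neither is among the arrays with low 5' signal. A second probe set of SLC31A2 fell further, from a geometric mean of 687 to 19.1, and rose by 2.92 (adjusted p = 0.0037) to 28 dpn, where the first was not called. The 19.1 is under the background signal of 74.7, so the sizes of these steps are not measured. With the mean of both probe sets the difference from 1 to 28 dpn was 1.37. SLC31A1, CTR1, the copper importer of the plasma membrane, had 373, 426 and 499.6 at 94 dpc, 350.5, 472 and 564 at 1 dpn, 524, 634 and 693 at 28 dpn, and 276, 417 and 578 at 188 dpn. It was lower at 188 than at 28 dpn, with a log2 difference of -0.60 ± 0.17 (SE; adjusted p = 0.018, and 0.00347 to 0.234 over the alternatives).

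SLC41A1, a magnesium carrier, rose to 28 dpn and was called in all 4 comparisons. In SLC41A1 the lowest, median and highest signals were 352, 432 and 664 at 94 dpc, 589, 736 and 997 at 1 dpn, 994, 1055 and 1252 at 28 dpn, and 520.0, 756 and 784 at 188 dpn. The 28 dpn animals reached above nearly every other animal and lay above all fetuses and all 188 dpn animals. The differences were 0.71 ± 0.17 (SE; adjusted p = 0.00253) at birth, 0.52 ± 0.17 (SE; adjusted p = 0.0314, and 0.0144 to 0.789 over the alternatives) to 28 dpn and -0.61 ± 0.17 (SE; adjusted p = 0.0167, and 0.00663 to 0.246 over the alternatives) from 28 to 188 dpn. Its 3 dimmer probe sets differed by 0.60 to 1.61 at birth and from 1 to 28 dpn by -0.57 to -0.05, and the mean of all 4 gave -0.08 there. The iron carriers SLC11A1 and SLC11A2 were not called, with SLC11A2 medians of 219, 143, 225 and 197.

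Of 14 calls among metal carriers, 4 held in all 33 alternatives. Quantile normalization or median centring, or both, ended the calls of SLC39A7 from 94 dpc to 1 dpn, SLC41A1 from 1 to 28 dpn, SLC30A3, SLC30A5, SLC31A1 and SLC41A1 from 28 to 188 dpn, and SLC31A2 from 94 dpc to 188 dpn. Without 1 dpn animals 1 to 3 there was no call for SLC39A1 and SLC39A7 from 94 dpc to 1 dpn, and SLC39A1 and SLC41A1 from 1 to 28 dpn. The calls of SLC39A1 from 1 to 28 dpn, SLC30A3, SLC30A5 and SLC41A1 from 28 to 188 dpn, and SLC31A2 from 94 dpc to 188 dpn did not hold without the 188 dpn animals with liver transcripts, 1 to 3. The calls of SLC39A7 from 94 dpc to 1 dpn, SLC39A1 and SLC41A1 from 1 to 28 dpn, and SLC30A3 from 28 to 188 dpn were not made from the 2 stages alone. Averaging all probe sets of a gene ended the calls of SLC39A1 from 94 dpc to 1 dpn, SLC39A1 from 1 to 28 dpn, SLC30A5 and SLC31A1 from 28 to 188 dpn, and SLC41A1 from 94 dpc to 188 dpn. SLC30A5 from 28 to 188 dpn was not called without 188 dpn animal 3, 4, 5, 6 or 28 dpn animal 1, 2, 6 (log2 -0.94 to -0.84, adjusted p 0.0513 to 0.0764). SLC39A1 from 94 dpc to 1 dpn was not called without 94 dpc animal 3 (log2 0.66, adjusted p 0.0505). SLC39A1 from 1 to 28 dpn lost its call when any 1 of 11 animals was left out (1 dpn 2/3/6, 188 dpn 2, 28 dpn 3/4/5/6, 94 dpc 1/2/6), with log2 -0.69 to -0.50, adjusted p 0.0512 to 0.122. SLC39A7 from 94 dpc to 1 dpn was not called without 1 dpn animal 1 (log2 -0.44, adjusted p 0.0501). SLC41A1 from 1 to 28 dpn was not called without 1 dpn animal 1, 2, 3 or 28 dpn animal 1, 4 (log2 0.45 to 0.51, adjusted p 0.0565 to 0.0771).

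Nucleoside and nucleotide sugar carriers held both of the rises called from 28 to 188 dpn, of SLC35F5 and SLC35D2. The rise of SLC35D2 was 0.48 ± 0.15 (SE; adjusted p = 0.0372, and 0.00312 to 0.205 over the alternatives), and the call was lost without 188 dpn animals 1 to 3 and when any 1 of 7 animals was left out. The counts among the 11 genes were 4 higher and 3 lower from 94 dpc to 1 dpn, and 2 higher and 1 lower from 1 to 28 dpn. From 28 to 188 dpn they were 2 higher and 0 lower. From 94 dpc to 188 dpn 4 (36.4%) were higher and 2 (18.2%) lower, with a median difference of 0.10. Of all probe sets 12.5% were higher and 27.4% lower there, and of genes of the same level 23% and 34.1%. With quantile normalization 5 were higher and 1 lower (median 0.58), and with median centring 6 and 1 (median 0.63).

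SLC35F5, a member of the SLC35 family, fell at birth and then rose. Its lowest, median and highest signals were 356, 514 and 933 at 94 dpc, 178, 227 and 285 at 1 dpn, 311, 482 and 848 at 28 dpn, and 1683, 1893 and 2377 at 188 dpn. The 1 dpn animals lay below all others and the 188 dpn animals above all others. The differences were -1.33 ± 0.26 (SE; adjusted p = 0.00043) at birth, 1.12 ± 0.26 (SE; adjusted p = 0.00336) from 1 to 28 dpn and 1.98 ± 0.26 (SE; adjusted p = 1.76e-05) from 28 to 188 dpn. Its 2 other probe sets had the same order of signs in these steps, with -1.29, 1.59 and 1.13 in one and -0.88, 0.21 and 1.39 in the dimmer one. Without the 188 dpn animals 1 to 3, which carried liver transcripts, all 4 of its calls were kept.

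SLC35A4, of the same family, had 346, 544 and 814 at 94 dpc, 1044, 1521 and 3022 at 1 dpn, 1328, 1416 and 1572 at 28 dpn, and 664, 1073 and 1363 at 188 dpn. The 1 dpn animals lay above all fetuses, with a log2 difference of 1.55 ± 0.24 (SE; adjusted p = 4.51e-05, and 2.75e-06 to 0.057 over the alternatives). SLC35B1, which brings ATP into the endoplasmic reticulum, had 1033, 1169 and 1737 at 94 dpc, 1414, 1622 and 2295 at 1 dpn, 2017, 2183 and 2525 at 28 dpn, and 2075, 2594 and 2654 at 188 dpn. It was higher at 188 dpn than at 94 dpc, with a log2 difference of 1.01 ± 0.15 (SE; adjusted p = 8.24e-06), without overlap. SLC35D2, a carrier of UDP-N-acetylglucosamine, was also higher, with a log2 difference of 0.80 ± 0.15 (SE; adjusted p = 0.000156) and without overlap.

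SLC35B3 and SLC35C2 went down. SLC35B3, which supplies the Golgi with the sulfate donor PAPS, had 178, 264 and 511 at 94 dpc, 68.4, 122 and 190.0 at 1 dpn, 97.7, 154 and 248 at 28 dpn, and 43.2, 102 and 157 at 188 dpn. The 188 dpn animals lay below all fetuses, with a log2 difference of -1.60 ± 0.30 (SE; adjusted p = 0.000158), and the fall at birth was -1.20 ± 0.30 (SE; adjusted p = 0.00406). SLC35C2, of Golgi fucosylation, had 209, 255 and 325 at 94 dpc, 153, 382 and 539 at 1 dpn, 21.1, 159.9 and 253 at 28 dpn, and 23.1, 105 and 261 at 188 dpn. It was lower at 188 dpn than at 94 dpc, with a log2 difference of -1.55 ± 0.53 (SE; adjusted p = 0.0212, and 0.00248 to 0.148 over the alternatives), with wide scatter after birth. SLC29A1, the equilibrative nucleoside carrier ENT1, had 319, 369.9 and 447 at 94 dpc, 68.5, 171 and 308 at 1 dpn, 268, 289 and 389 at 28 dpn, and 159, 284 and 393 at 188 dpn. The 1 dpn animals lay below all fetuses, with a log2 difference of -1.23 ± 0.26 (SE; adjusted p = 0.000992), and animal 1, of the arrays with low 5' signal, was the lowest at 68.5. The difference from 1 to 28 dpn was 0.90 ± 0.26 (SE; adjusted p = 0.0162, and 0.00297 to 0.222 over the alternatives). SLC35F6 was higher at 1 dpn than at 94 dpc, with a log2 difference of 0.80 ± 0.19 (SE; adjusted p = 0.00291), without overlap. SLC35A3, SLC35B2 and SLC35C1 were not called in any test.

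Of 18 calls among these carriers, 11 held in all 33 alternatives. The call of SLC35C2 from 94 dpc to 188 dpn was lost when the arrays were scaled by quantiles or on their median. Lost without the 1 dpn animals 1 to 3 were the calls of SLC35D2 from 94 dpc to 1 dpn, and SLC29A1 and SLC35F6 from 1 to 28 dpn. Without 188 dpn animals 1 to 3 there was no call for SLC35D2 from 28 to 188 dpn. Fitting only the 2 stages compared ended the calls of SLC35B1 and SLC35D2 from 94 dpc to 1 dpn, and SLC29A1 and SLC35F6 from 1 to 28 dpn. Averaging all probe sets of a gene ended the call of SLC35A4 from 94 dpc to 1 dpn. SLC35C2 from 94 dpc to 188 dpn was not called without 188 dpn animal 3 (log2 -1.17, adjusted p 0.0663). SLC35D2 from 94 dpc to 1 dpn was not called without 1 dpn animal 2, 3 or 94 dpc animal 1, 3, 5, 6 (log2 0.35 to 0.43, adjusted p 0.0516 to 0.0847). SLC35D2 from 28 to 188 dpn was not called without 188 dpn animal 2, 3, 4 or 28 dpn animal 1, 2, 3, 6 (log2 0.43 to 0.49, adjusted p 0.054 to 0.0843). SLC35F6 from 1 to 28 dpn was not called without 28 dpn animal 4, 5, 6 (log2 -0.55 to -0.53, adjusted p 0.0624 to 0.0685).

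**Figure D4:**
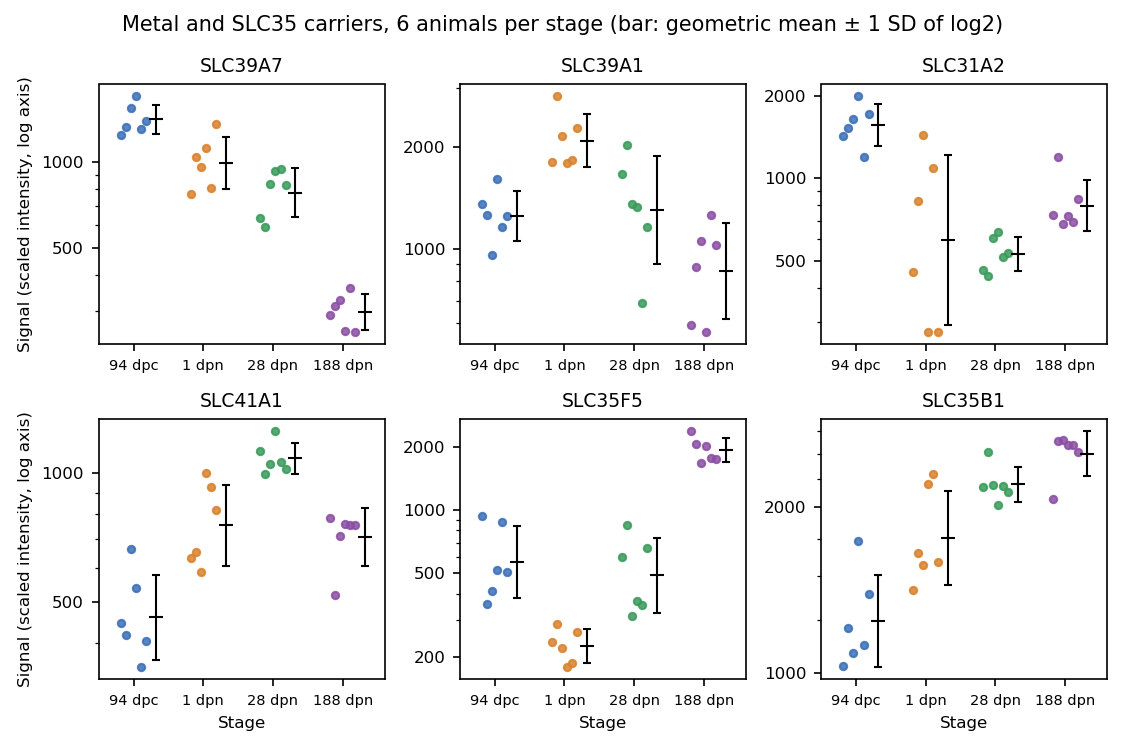
Signal of 4 metal carriers and 2 SLC35 carriers by stage on a log axis, 1 point per animal, with the geometric mean and 1 SD of log2 signal as a bar beside the points. The SLC39A7 animals at 188 dpn sit between 252 and 361, below all others, and the SLC35F5 animals at 188 dpn between 1683 and 2377, above all others.

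Of 8 inorganic ion carriers, 2 had a mean of 100 or more at all 4 stages. The counts were 1 higher and 1 lower from 94 dpc to 1 dpn, 2 higher and 0 lower from 1 to 28 dpn and 0 and 0 from 28 to 188 dpn. From 94 dpc to 188 dpn 2 were higher and 2 lower (25% each). Of all probe sets 12.5% were higher and 27.4% lower there, and of genes of the same level 23% and 34.1%. Among these calls, SLC4A4 higher and SLC8B1 lower follow in part from the level rule, since each reached 100 only at its high stage. With quantile normalization or median centring 3 were higher and 2 lower. SLC12A4, the potassium chloride cotransporter KCC1, had 327, 469 and 626 at 94 dpc, 166, 198 and 364 at 1 dpn, 116, 148 and 189 at 28 dpn, and 47.8, 122 and 204 at 188 dpn. It differed at birth, with a log2 difference of -0.98 ± 0.28 (SE; adjusted p = 0.00929, and 0.00258 to 0.166 over the alternatives), and the 28 and 188 dpn animals lay below all fetuses, with -2.04 ± 0.28 (SE; adjusted p = 2.68e-06) from 94 dpc to 188 dpn. SLC26A6, an exchanger of chloride with bicarbonate and other anions, ran the other way, with 15.9, 66.0 and 137 at 94 dpc, 73.1, 175 and 299.7 at 1 dpn, 258, 319 and 425 at 28 dpn, and 274, 378 and 469 at 188 dpn. The 28 and 188 dpn animals lay above all fetuses, and the 188 dpn level was at least 4.44-fold above the fetal one (2.66 ± 0.38 SE, adjusted p = 4.91e-06).

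Both SLC4 genes kept, SLC4A2 and SLC4A4, were higher at 28 than at 1 dpn, and neither call held without the 1 dpn animals 1 to 3. SLC4A2, the anion exchanger AE2, had 20.9, 61.7 and 130.5 at 94 dpc, 18.3, 37.4 and 145 at 1 dpn, 105, 178 and 271 at 28 dpn, and 40.4, 135 and 245 at 188 dpn. The difference from 1 to 28 dpn was 2.11 ± 0.49 (SE; adjusted p = 0.00362, and 0.000603 to 0.0689 over the alternatives), a rise of at least 2.18-fold. SLC4A4, the sodium bicarbonate cotransporter NBCe1, had 12.5, 34.0 and 64.2 at 94 dpc, 11.9, 25.4 and 47.2 at 1 dpn, 54.0, 91.7 and 161 at 28 dpn, and 47.6, 78.4 and 191 at 188 dpn. Its 28 dpn animals lay above all 1 dpn animals, with a log2 difference of 1.82 ± 0.44 (SE; adjusted p = 0.00441, and 0.00238 to 0.0548 over the alternatives), a rise of at least 1.22-fold. SLC8B1, the mitochondrial sodium calcium exchanger NCLX, had 106, 141 and 385 at 94 dpc, 44.6, 61.3 and 95.8 at 1 dpn, 5.66, 73.4 and 120.4 at 28 dpn, and 3.56, 11.6 and 75.4 at 188 dpn. Its mean reached 100 at 94 dpc alone, so only its levels are given. SLC26A11 and SLC34A2 were not called in any test, and SLC9A5, a sodium proton exchanger, passed only the F test (adjusted p = 0.0409).

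Partners of ion transport were measured beside them. Of 4 measured sodium pump genes, 1 was higher and 1 lower from 94 dpc to 1 dpn. Of all probe sets 10.1% and 20.8% were so called, and of genes of the same level 19.7% and 23.6%. From 94 dpc to 188 dpn 1 was higher and 3 lower, against 12.5% and 27.4%, and 23% and 34.1%. The subunit ATP1B3 was the lower one at birth, with log2 differences of -1.55 to -0.85 over the alternatives. The sodium pump subunit ATP1B1 had 4371, 5794 and 6472 at 94 dpc, 9592, 18837 and 24694 at 1 dpn, 6163, 9783 and 12747 at 28 dpn, and 6704, 9837 and 13414 at 188 dpn and rose at birth, with a log2 difference of 1.70 ± 0.23 (SE; adjusted p = 9.52e-06), without overlap. FXYD5, a pump regulator, was lower at 188 dpn than at 94 dpc, with a log2 difference of -1.66 ± 0.26 (SE; adjusted p = 1.88e-05), without overlap. Carbonic anhydrase CA3, which makes bicarbonate in muscle, had 11844, 13666 and 14260.5 at 94 dpc, 2429, 6183 and 17550.1 at 1 dpn, 26484, 32564 and 37230.1 at 28 dpn, and 37636, 40069 and 45011 at 188 dpn. From 1 to 28 dpn CA3 rose, with a log2 difference of 2.31 ± 0.32 (SE; adjusted p = 2.45e-05), without overlap. OXSR1, a kinase that controls cation chloride cotransporters, was higher at 188 dpn than at 94 dpc, with a log2 difference of 0.82 ± 0.17 (SE; adjusted p = 0.00058), without overlap.

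Of 8 calls among ion carriers, 5 held in all 33 alternatives. The 5 include those of SLC4A4 and SLC8B1 from 94 dpc to 188 dpn, which follow in part from the level rule. Under quantile or median scaling, the call was lost for SLC12A4 from 94 dpc to 1 dpn. The calls of SLC12A4 from 94 dpc to 1 dpn, and SLC4A2 and SLC4A4 from 1 to 28 dpn did not hold without the 1 dpn animals with low 5' signal, 1 to 3. Averaging all probe sets of a gene ended the call of SLC4A4 from 1 to 28 dpn.

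Of 9 carriers of lipids, vitamins and choline, SLC27A1 had the largest rise at birth. The counts were 1 higher and 1 lower from 94 dpc to 1 dpn, 0 higher and 1 lower from 1 to 28 dpn and 0 and 0 from 28 to 188 dpn. From 94 dpc to 188 dpn 1 was higher and 3 (33.3%) lower. Of all probe sets 12.5% were higher and 27.4% lower there, and of genes of the same level 23% and 34.1%. With quantile normalization 2 were higher and 0 lower, and with median centring 4 and 0. SLC27A1, the fatty acid transport protein FATP1, had 53.8, 102 and 155 at 94 dpc, 188, 311 and 486 at 1 dpn, 104, 175 and 201 at 28 dpn, and 108, 132 and 155 at 188 dpn. All 1 dpn animals lay above all fetuses, with a log2 difference of 1.67 ± 0.24 (SE; adjusted p = 1.75e-05). From 1 to 28 dpn it fell by 0.91 ± 0.24 in log2 (SE; adjusted p = 0.00915). Other genes of fatty acid uptake were measured in the same arrays. FABP3, the fatty acid binding protein of heart and muscle, had 4244, 5968 and 6363 at 94 dpc, 44513, 49505 and 63362 at 1 dpn, 22062, 24083 and 31340.0 at 28 dpn, and 5572, 8971 and 13995 at 188 dpn. It rose at birth, with a log2 difference of 3.15 ± 0.21 (SE; adjusted p = 6.39e-10), then fell by 0.98 ± 0.21 in log2 (SE; adjusted p = 0.00156) to 28 dpn and, with a log2 difference of -1.54 ± 0.21 (SE; adjusted p = 2.24e-05) to 188 dpn, each without overlap. ACSL1, which activates fatty acids, was higher at 1 dpn, with a log2 difference of 2.30 ± 0.21 (SE; adjusted p = 5.24e-08), without overlap.

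SLC5A6, the sodium-dependent carrier of biotin and pantothenate, had 149, 157 and 232 at 94 dpc, 160.4, 265 and 684 at 1 dpn, 319, 431 and 513 at 28 dpn, and 378, 391 and 774 at 188 dpn. The 28 and 188 dpn animals lay above all fetuses, with 1.45 ± 0.31 (SE; adjusted p = 0.000549) from 94 dpc to 188 dpn. At 1 dpn the animals 1 to 6 read 219.6, 160.4, 162, 684, 309.7 and 584. From 94 dpc to 1 dpn the difference was 0.80 ± 0.31 (SE; adjusted p = 0.0523), and 1.54 (adjusted p = 0.000311) without animals 1 to 3. At 188 dpn the animals 1 and 2, with the highest liver list medians, read 774 and 608 and the others 378 to 393. The part of liver transcripts in the SLC5A6 level was not tested, and the 188 dpn call was kept without animals 1 to 3.

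SLC46A1, the proton-coupled folate carrier, had 251, 308 and 426 at 94 dpc, 108, 193 and 395 at 1 dpn, 85.1, 153 and 225 at 28 dpn, and 99.1, 138 and 234 at 188 dpn. The 188 dpn animals lay below all fetuses, with a log2 difference of -1.13 ± 0.31 (SE; adjusted p = 0.00548, and 0.00108 to 0.15 over the alternatives). SLC46A2, of the same family, had 123, 133 and 484 at 94 dpc, 22.4, 57.2 and 171 at 1 dpn, 59.6, 126 and 219.8 at 28 dpn, and 32.2, 56.8 and 156 at 188 dpn. In it 94 dpc animal 5, with the high macrophage list, read 484 and the other fetuses 123 to 187. It was lower at 1 dpn than at 94 dpc, with a log2 difference of -1.50 ± 0.50 (SE; adjusted p = 0.0249, and 0.00603 to 0.076 over the alternatives). The 1 dpn and 188 dpn medians of SLC46A2 lay under the background signal of 74.7, so the size of this fall is not settled. SLC33A1, which moves acetyl-CoA into the endoplasmic reticulum, was lower at 188 dpn than at 94 dpc, with a log2 difference of -0.93 ± 0.37 (SE; adjusted p = 0.0463, and 0.00329 to 0.422 over the alternatives). SLC44A2, a choline transporter-like protein, had stage medians of 803, 634, 803 and 753 and was not called in any test. SLC52A2, a riboflavin carrier, passed only the F test (adjusted p = 0.0241), and SLC46A3 passed none.

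SLC10A1, the bile acid importer of hepatocytes, passed the level rule through the 188 dpn animals. Its values at 188 dpn were 1147, 1212, 146, 48.1, 111 and 17.1 for animals 1 to 6, and the liver list medians of the same arrays were 13442, 9854, 1658, 42.4, 18.0 and 106. At the other stages SLC10A1 read 16.1 to 130.3. SLC2A2, the glucose carrier GLUT2 of liver, was left out by the level rule and read 154, 199, 18.6, 8.16, 22.6 and 106 in the same animals. The part of liver transcripts in these levels was not tested.

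**Figure D5:**
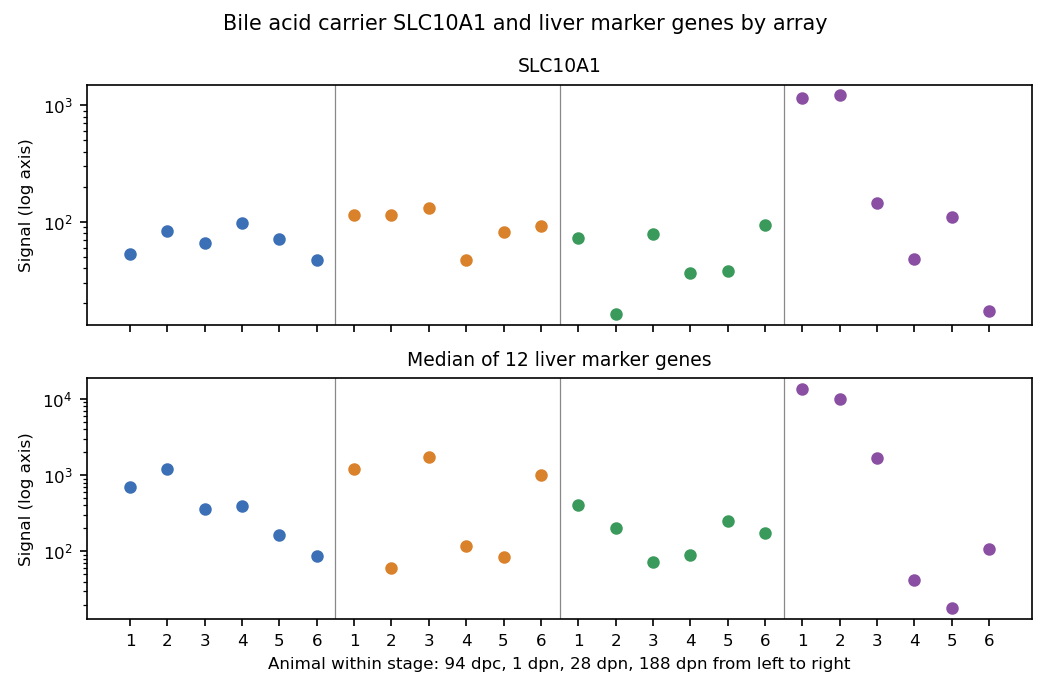
Signal of the bile acid carrier SLC10A1 (top) and the median of 12 liver marker genes (bottom) in each of 24 arrays on log axes, 1 point per animal in order of stage. The 188 dpn animals 1 and 2 stand at 1147 and 1212 for SLC10A1 and at 13442 and 9854 for the liver list.

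Of 7 calls among lipid, vitamin and choline carriers, 3 held in all 33 alternatives. Quantile normalization or median centring, or both, ended the calls of SLC46A2 from 94 dpc to 1 dpn, and SLC33A1, SLC46A1 and SLC46A2 from 94 dpc to 188 dpn. Lost without the 188 dpn animals 1 to 3 was the call of SLC33A1 from 94 dpc to 188 dpn. In a fit of only the 2 stages compared, no call was made for SLC46A2 from 94 dpc to 1 dpn. SLC33A1 from 94 dpc to 188 dpn lost its call when any 1 of 14 animals was left out (188 dpn 2/3/4/5, 28 dpn 1/4/5/6, 94 dpc 1/2/3/4/5/6), with log2 -0.97 to -0.78, adjusted p 0.0523 to 0.112. SLC46A2 from 94 dpc to 1 dpn was not called without 1 dpn animal 3, 4, 5 or 94 dpc animal 5 (log2 -1.38 to -1.20, adjusted p 0.0542 to 0.0732). SLC46A2 from 94 dpc to 188 dpn was not called without 188 dpn animal 3, 4, 5 or 94 dpc animal 5 (log2 -1.35 to -1.10, adjusted p 0.0509 to 0.0816).

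Of 3 organic ion carriers, SLC22A3 fell and SLC22A6 was not called. SLC22A3, the organic cation carrier OCT3, had 290.1, 371 and 425 at 94 dpc, 76.2, 223 and 322 at 1 dpn, 167, 207 and 267 at 28 dpn, and 62.6, 88.3 and 165 at 188 dpn. All 188 dpn animals lay below all 28 dpn animals and all fetuses, with -1.19 ± 0.27 (SE; adjusted p = 0.00447) from 28 to 188 dpn and -2.001 ± 0.27 (SE; adjusted p = 3.18e-06) from 94 dpc. At birth the difference was -0.90 ± 0.27 (SE; adjusted p = 0.0151, and 0.00565 to 0.172 over the alternatives). SLC22A5, the carnitine importer OCTN2, had 146, 175 and 561 at 94 dpc, 116, 176 and 254 at 1 dpn, 181, 267 and 367 at 28 dpn, and 92.1, 142 and 201 at 188 dpn. It was lower at 188 than at 28 dpn, with a log2 difference of -0.94 ± 0.29 (SE; adjusted p = 0.0292, and 0.00469 to 0.214 over the alternatives), with overlap. Of 4 calls in this group, 2 held in all 33 alternatives. The calls of SLC22A3 from 94 dpc to 1 dpn, and SLC22A5 from 28 to 188 dpn were lost when the arrays were scaled by quantiles or on their median. Without 1 dpn animals 1 to 3 there was no call for SLC22A3 from 94 dpc to 1 dpn. The call of SLC22A5 from 28 to 188 dpn did not hold without the 188 dpn animals with liver transcripts, 1 to 3. The call of SLC22A3 from 94 dpc to 1 dpn was not made from the 2 stages alone. SLC22A5 from 28 to 188 dpn was not called without 188 dpn animal 1, 5 or 28 dpn animal 2, 3, 5, 6 (log2 -0.93 to -0.83, adjusted p 0.0511 to 0.0703).

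The 3 regulators are no carriers. SLC9A3R2, a scaffold protein of the sodium proton exchanger, had 581, 764 and 921 at 94 dpc, 602, 747 and 1043 at 1 dpn, 408, 705 and 997 at 28 dpn, and 282, 328 and 397 at 188 dpn. All 188 dpn animals lay below all others, with a log2 difference of -0.996 ± 0.19 (SE; adjusted p = 0.00109) against 28 dpn. SLC2A4RG, a transcription factor named for the GLUT4 gene, had 1160.4, 1636 and 1922 at 94 dpc, 499, 1276 and 1736 at 1 dpn, 1506, 1869 and 2362 at 28 dpn, and 1286, 1502 and 1803 at 188 dpn. It differed from 1 to 28 dpn, with a log2 difference of 0.78 ± 0.23 (SE; adjusted p = 0.0192, and 0.00634 to 0.101 over the alternatives). SLC9A3R1, the related scaffold, passed only the F test (adjusted p = 0.0325). Of 3 calls among the regulators, 2 held in all 33 alternatives. Lost without the 1 dpn animals 1 to 3 was the call of SLC2A4RG from 1 to 28 dpn. Fitting only the 2 stages compared ended the call of SLC2A4RG from 1 to 28 dpn.

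The 25 measured genes under the level rule included carriers of gut, kidney and brain, such as the intestinal glucose carrier SLC5A1, the peptide carrier SLC15A1 and the serotonin carrier SLC6A4. Over all 97 genes the counts were 14 higher and 12 lower at 1 dpn, 8 and 10 at 28 dpn, 2 and 16 at 188 against 28 dpn and 10 and 26 at 188 dpn against 94 dpc. The added calls were of SLC1A2, SLC1A6 and SLC5A10, with both stages under background, so no fold is given.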

How the data were processed

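Messenger RNA of 24 pigs was read on Affymetrix Porcine arrays, 1 per animal, from 0.5 µg of total RNA, per the labels' protocols. The authors deposited a linear signal intensity per probe set and array, made with GCOS 1.1.1 per the submitters' processing notes. Values were already scaled between arrays, since the mean trimmed by 2% on either side was 498 to 499 in each. Symbols came from the platform annotation of 2016, which gives 1 symbol to 10069 of the tested probe sets, more than 1 to 198 and none to 13668. Of the 97 carrier genes 95 had a current RefSeq symbol, and 28 of the 72 genes kept had more than 1 probe set.

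The log2 signal, with nothing added, of 23935 probe sets (183 controls left out, no filter) was fitted with limma 3.58.1 in R 4.3.3 (lmFit, eBayes), with 4 stage means, 24 arrays and 20 residual degrees of freedom. All p-values are two-sided and were adjusted by Benjamini-Hochberg over the 23935, with calls at 0.05 or less. The fit was tested on simulated data. Background was the 95th percentile of 17 Tag control probe sets, 74.7. Where 1 of the 2 geometric stage means was lower than this, the fold is a bound, from the other mean over the geometric mean of the lower stage with each animal set to at least 74.7. The number of arrays limits the precision.

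The genes, substrate classes, partner lists and marker lists were chosen with earlier results of these data known. Values of every stage were given for the brightest gene of each substrate class and up to 5 called genes with the largest difference whose lowest stage mean is 50 or more, up to 3 with a stage below 50, and up to 12 partner genes. Other genes are named with their levels, and genes of the same family were set beside them. Alternatives were quantile normalization, median centring, 16 added before the log2, the dimmest 30% left out, trend and robust eBayes, only the 2 stages compared, 188 dpn or 1 dpn animals 1 to 3 left out, each animal left out, an average over the probe sets of a gene and, for counts, a level of 200. Counts over all 97 genes and over the genes at 100 or more in all 4 stages were added after the data were seen. The labels give no mother, sex or batch, and the fit has no such term. Animal numbers follow the sample order and pair nothing.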

Additional observations from a re-analysis of the deposited data

Results flagged for a closer look

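Single animals stood apart within their stage in 8 of 156 groups examined (39 named genes at 4 stages), where chance alone gives about 1 in 20, or 5%. In SLC22A5, 94 dpc animal 5 read 561 and the other fetuses 146 to 205. In SLC46A2 the same animal read 484 and the others 123 to 187. Both belong to the array with the high macrophage list. In SLC3A1, 94 dpc animal 2 was the lowest at 54.2, with the others at 153 to 274.

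In SLC2A3, 1 dpn animal 3 read 86.2 and the others 234 to 368. This array is among the 3 with low 5' signal at 1 dpn, and its liver list median was the highest of that stage. At 28 dpn, SLC2A8 was 38.0 in animal 2 against 108 to 167, and SLC35C2 was 21.1 in animal 5 against 130.3 to 253. At 188 dpn, animal 1, whose liver list median was the highest, read 234 in SLC38A1 against 30.4 to 62.7, and 2075 in SLC35B1 against 2520.2 to 2654. Whether liver transcripts, 5' signal or macrophage transcripts bear on these values was not tested.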

How the results depend on the processing

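Of 460 alternative values of the counts, 431 stayed within 1.5 times the reported one, and of 94 called gene comparisons 49 were kept in all alternatives run. The 94 include the 4 calls that follow in part from the level rule. The balance of higher and lower calls moved with scaling. From 94 dpc to 1 dpn, 14 higher and 12 lower became 23 and 7 with quantile normalization and 22 and 7 with median centring. From 28 to 188 dpn the 16 lower became 8 with either, and from 94 dpc to 188 dpn the 10 higher and 23 lower became 21 higher with quantile normalization, and 25 and 14 with centring. Fitting only the 2 stages compared left 8 higher from 94 dpc to 1 dpn, 5 higher and 4 lower from 1 to 28 dpn, and 3091 of all probe sets there. Without the 1 dpn animals 1 to 3 that step had 3 higher and 3 lower, and 3088 of all probe sets. Without the 188 dpn animals 1 to 3 the step from 28 to 188 dpn had 1 higher and 10 lower, and 2072 of all probe sets. With fewer animals in these fits the cause was not tested beyond that. Leaving out each animal gave 1 to 3 higher from 28 to 188 dpn, 1 where the call of SLC35D2 was lost. Among the 47 genes at 100 or more in all stages, a smaller list by construction, 9 were higher from 94 dpc to 1 dpn, 5 higher from 1 to 28 dpn and 15 lower from 94 dpc to 188 dpn.

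When the probe sets of a gene were averaged, the sign turned for SLC3A1 from 94 dpc to 1 dpn (-0.67) and from 1 to 28 dpn (0.31), and for SLC31A2 from 1 to 28 dpn (1.37). SLC41A1 from 1 to 28 dpn turned as well (-0.08). No paired analysis was possible because the animal numbers carry no pairing. Signal under 74.7 cannot be told from background, which held for at least 1 stage in 17 genes, and 6 animals from 3 gilts per stage leave small differences undetectable.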
